A study of Mus musculus with 9 samples.

Results

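T2M (type 2 myeloid) cells were compared with macrophage-labelled cells sorted from lungs of mice given IL-25. The comparison took every array titled as T2M cells, of which there were 3, and every array titled as macrophages, of which there were 2. These are 5 of the 9 Affymetrix mouse arrays of the series, and 18193 genes were compared, each through 1 probe set.

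All donors were female 4get mice on the BALB/c background, 6 to 8 weeks of age. The 4get allele couples a green fluorescent protein to transcription of Il4, so that cells that use the Il4 locus fluoresce. IL-25 was given into the trachea once a day for 4 days, at 0.5 µg in 50 µL each time. Both groups thus carried the reporter and had received IL-25, and none of the values shows an effect of IL-25 itself. Lungs were digested, cells carrying CD11b were enriched on magnetic columns, cells of 4 donors were pooled, and 400000 cells were sorted for each array, of which 50 ng of RNA was amplified. Both gates took CD11b+ and F4/80+ cells that were IL-5rα-. The T2M gate further asked for IL-4/GFP+, Gr-1mid and MHCIIlo cells, and the macrophage gate for IL-4/GFP-, Gr-1- and MHCII+ cells. In the leave-one-out statements below, T2M 3 stands for T2M replicate 3, and so on. Each replicate was a pool, and the labels do not say whether pools of both groups shared donors. The 2 eosinophil-labelled and 2 neutrophil-labelled arrays entered the estimate of the spread and the choice of 1 probe set per gene, by its mean over all 9 arrays, and are quoted where they help to place a gene.

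IL-25 is a cytokine of epithelial cells that starts type 2 inflammation, the response driven by IL-4, IL-5 and IL-13 that is seen in asthma and against worms. Macrophages that meet IL-4 or IL-13 become alternatively activated and make arginase, resistin-like molecule alpha, chitinase-like proteins and a set of chemokines. Cells that present antigen to helper T cells carry MHC class II molecules, whose genes are turned on together by the co-activator that Ciita encodes. Resident macrophages, monocytes, dendritic cells, eosinophils and neutrophils of the lung can all carry CD11b, and each is known by its own set of genes.

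The values are deposited log2 levels of 1 probe set per gene, so a difference of 1 stands for a 2-fold difference. They hold no detection call, and 4549 of the genes averaged 4.77 or less over the 9 arrays, so a fold against such a low level is a fold of these values and can understate the ratio of transcripts. A gene was called at a limma adjusted p (Benjamini-Hochberg over all genes) under 0.05. In the comparison of T2M with macrophage-labelled arrays, 3123 of 18193 genes were called (17.2%), 1188 higher in T2M (6.53%) and 1935 lower (10.6%). At 4-fold or more, 463 of the called genes were higher and 629 lower. Of the called genes, 62.0% were lower in T2M, and the median difference over all genes was 0.18. No called gene had overlapping arrays, but such separation was common over all 18193 genes. The T2M arrays lay above both macrophage-labelled arrays for 7397 genes and below both for 5041. In sorted bulk samples, fewer cells of a type and less RNA per cell cannot be told apart. The p-values rest on the spread between arrays of 1 label, shared over all 4 labels. For the macrophage-labelled arrays this may not be a spread between pools.

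**Figure D1:**
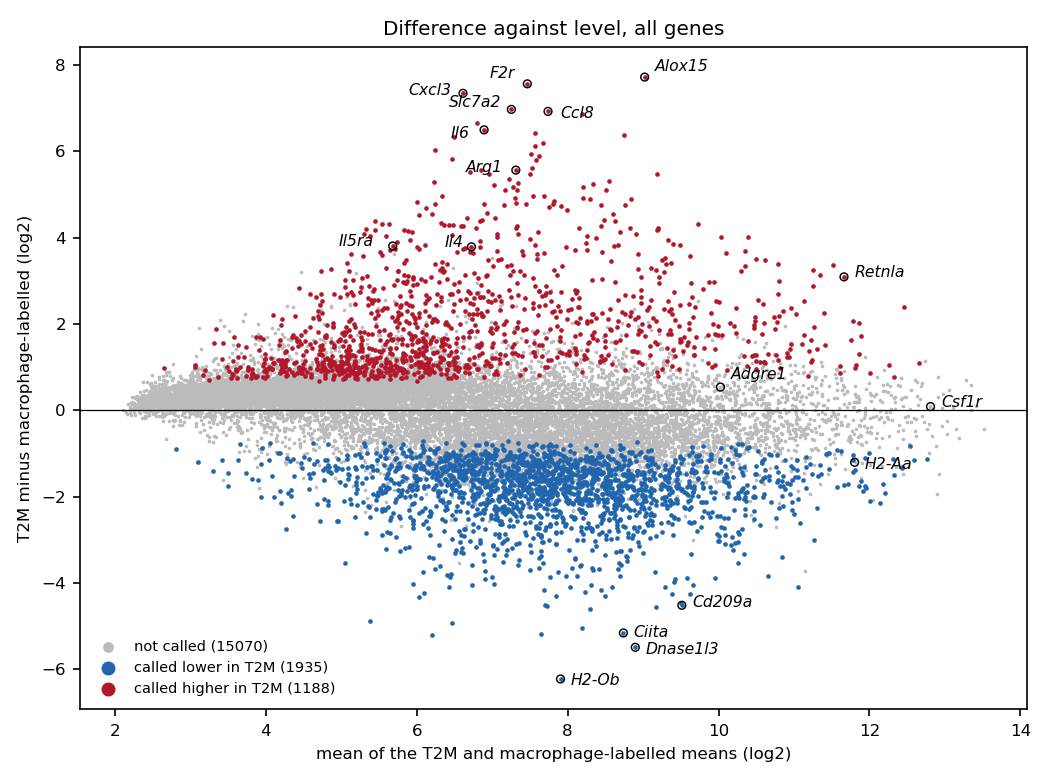
Each point is 1 of 18193 genes, with the mean of both group means on the x axis (log2 level) and T2M minus macrophage-labelled on the y axis (log2). Red points were called higher in T2M (1188) and blue points lower (1935). Alox15 stands highest at 7.72 and H2-Ob lowest at -6.23, while Csf1r and Adgre1 lie near 0.

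Several features of the arrays bear on how these counts are read. The macrophage-labelled arrays correlated with each other at 0.994 over genes, against 0.915 to 0.970 for the other pairs of arrays with 1 label. Whether they hold 2 pools or 1 RNA cannot be told from the values. With their mean taken as 1 replicate, 459 genes were called (2.52%), 220 higher (1.21%) and 239 lower (1.31%), and all of these were among the 3123. This is called the 1-replicate count below and is given beside each list. The Gapdh control probe sets, whose 3′ minus 5′ difference grows as the amplified cDNA gets shorter, gave 3.43, 2.35 and 2.97 on the T2M arrays and 1.02 and 1.20 on the macrophage-labelled arrays, without overlap. The same difference of the actin control was 0.61, -0.04 and -0.02 on T2M and -0.01 and -0.02 on macrophage-labelled arrays, with overlap. The SD of levels over genes was 2.11 to 2.18 on the T2M arrays and 2.40 to 2.43 on the macrophage-labelled ones. The shares called also differed with level. Of 4 equal bins of genes by mean level, in the lowest 2.99% were higher in T2M and 1.74% lower, and in the highest 8.01% were higher and 16.9% lower. The part of these features in the calls was not tested.

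**Figure D2:**
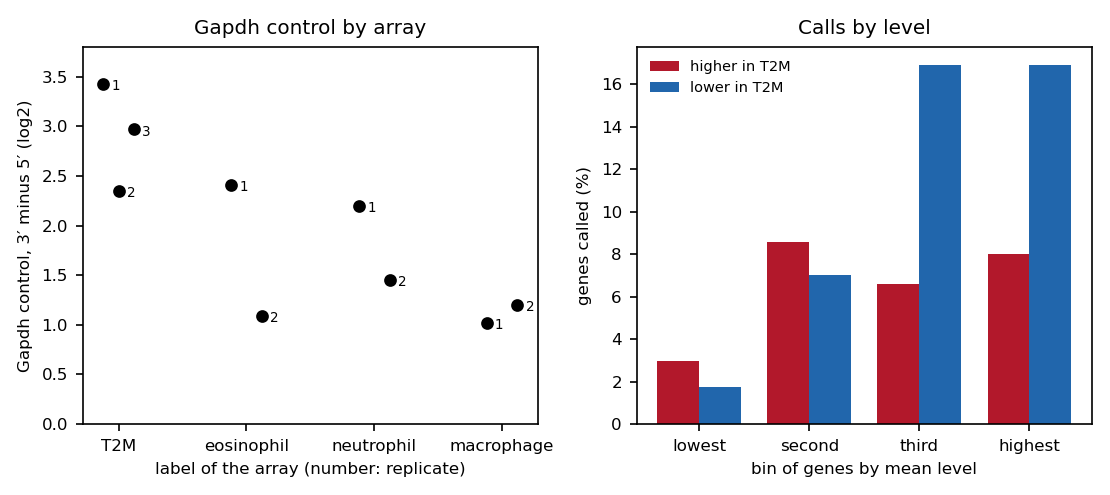
Left, the difference between 3′ and 5′ Gapdh control probe sets on each of the 9 arrays (y axis, log2) by label. Right, the percentage of genes called higher (red) or lower (blue) in T2M in each of 4 bins of genes by mean level. The T2M arrays sit at 2.35 to 3.43 and the macrophage-labelled arrays at 1.02 and 1.20, and calls of lower genes reach 16.9% in both upper bins.

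The arrays of the other labels did not all carry the genes of their label. The mean level of 12 eosinophil genes was 8.58 to 8.90 on the T2M arrays, 6.14 to 6.79 on the eosinophil-labelled arrays and 5.27 to 5.42 on the macrophage-labelled arrays. That of 22 neutrophil genes was 11.18 to 11.64 on the eosinophil-labelled arrays, 7.59 to 8.78 on the neutrophil-labelled, 8.16 to 8.82 on the T2M and 6.16 to 6.88 on the macrophage-labelled arrays. Neutrophil-labelled replicate 2 correlated at 0.954 with macrophage-labelled replicate 1 and at 0.915 with its own partner. The populations are named by their labels throughout. With only the 5 T2M and macrophage-labelled arrays in the fit, 4988 genes were called, 2253 higher and 2735 lower.

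The genes of the antigens behind the gates matched the sort in part. Of 8 genes measured, 2 were higher in T2M, 1 was lower and 5 were not called, and the 1-replicate count was 0. The genes of the Gr-1 antigens (Ly6g, Ly6c1, Ly6c2) were not analysed here. Il4, the gene behind the reporter, read 7.69, 9.80 and 8.36 on the T2M arrays and 4.89 and 4.77 on the macrophage-labelled arrays, a difference of 3.79 (SE 0.66, adjusted p = 0.00828) that the sort selected. Il5ra, the IL-5 receptor alpha chain, read 8.05, 7.18 and 7.52 against 3.85 and 3.71. The T2M arrays lay above (difference 3.80, SE 0.61, adjusted p = 0.00591), although both gates excluded cells with the receptor at the surface. Adgre1, which encodes F4/80, read 10.91, 9.95 and 10.02 against 9.86 and 9.65 and was not called (0.54, adjusted p = 0.300). Itgam, the CD11b chain, read 8.34, 10.40 and 9.72 against 8.55 and 8.72, with T2M replicate 1 below both macrophage-labelled arrays (adjusted p = 0.270). Among the class II genes, H2-Eb1 was lower in T2M, and H2-Aa (-1.21), H2-Ab1 (-1.49) and Cd74 (-1.47) were also below 0 without passing the test (adjusted p = 0.0595, 0.106 and 0.0826). With the macrophage-labelled arrays as 1 replicate, or with 1 of them left out, Il4 and Il5ra were not called (adjusted p from 0.0614 to 0.0799).

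Genes of MHC class II presentation that were called were with 1 exception lower in T2M. Of 19 measured, 9 were lower, 1 was higher and 9 were not called, with a median of -1.26, and the 1-replicate count was 3 lower and 1 higher. The gates took MHCIIlo cells for T2M and MHCII+ cells for macrophages, so the sort selected T2M cells with less of the surface chains. For Ciita and the other genes of the list, the part of the sort was not tested. The largest differences lay in the genes that regulate or edit the loading of peptide, and smaller ones in the chains that the surface antibody sees. Because these genes share promoter elements, the stretch from position -120 to -21 before the annotated start is printed for 4 of them, from RefSeq on GRCm38.p6. That assembly is of another strain than BALB/c. H2-Ob, H2-Oa and H2-Eb1 were called lower, and H2-Aa missed the threshold. Capitals mark CCAAT or its reverse complement ATTGG, the letters of the Y box of class II promoters, to which the factor NF-Y binds.

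H2-Ob, chr17:34238785-34238884, plus strand: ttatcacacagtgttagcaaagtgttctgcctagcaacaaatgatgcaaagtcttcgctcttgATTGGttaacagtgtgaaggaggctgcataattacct
H2-Oa, chr17:34092259-34092358, plus strand: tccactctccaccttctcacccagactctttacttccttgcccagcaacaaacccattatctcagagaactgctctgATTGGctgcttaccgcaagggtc
H2-Eb1, chr17:34305747-34305846, plus strand: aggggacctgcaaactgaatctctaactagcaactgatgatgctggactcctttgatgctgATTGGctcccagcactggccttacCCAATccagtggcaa
H2-Aa, chr17:34287844-34287943, minus strand: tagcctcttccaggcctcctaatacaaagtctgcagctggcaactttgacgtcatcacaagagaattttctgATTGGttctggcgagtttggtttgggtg

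The motif CCAAT was searched on both strands in windows from 250 bases before to 50 bases after each start. It stood in 10 of 13 class II list genes with a window and in 42.0% of 14452 measured genes with one. In the 4 stretches its first match began at -57, -43, -59 and -48, and H2-Eb1 held 2. A match describes letters and shows no binding.

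Ciita, the class II co-activator, read 5.33, 6.91 and 6.23 on the T2M arrays and 11.33 and 11.31 on the macrophage-labelled arrays. The groups lay far apart, and Ciita was 35.8-fold lower in T2M (log2 difference -5.16, SE 0.62, adjusted p = 0.00188). H2-Ob, a chain of the H2-O complex that restrains peptide loading in B cells and some dendritic cells, read 5.91, 4.37 and 4.10 against 11.08 and 10.96. It had the largest lower difference of all genes with non-overlapping arrays (-6.23, SE 0.81, adjusted p = 0.00267). Its partner H2-Oa read 6.61, 7.61 and 8.05 against 11.56 and 11.26 (-3.99, adjusted p = 0.00110). The chains of H2-M, which catalyses peptide loading, were lower as well. H2-DMa read 6.49, 8.80 and 7.18 against 11.75 and 11.73 (-4.25, adjusted p = 0.0118), and H2-DMb2 differed by -3.34 (adjusted p = 0.0128). H2-Eb1, a surface chain, read 9.95, 11.93 and 11.00 against 13.08 and 13.03, a difference of -2.09 (SE 0.53, adjusted p = 0.0324). The 1 member higher in T2M was Cd80, a co-stimulatory ligand for T cells, which read 10.47, 11.13 and 10.71 against 8.07 and 8.00 and was 6.67-fold higher (adjusted p = 7.06e-04). In the 1-replicate setting, or without macrophage-labelled 1 or 2, H2-DMa, H2-DMb2 and H2-Eb1 were not called (adjusted p from 0.0901 to 0.200). Calls also ended for H2-Eb1 without T2M 3 (adjusted p = 0.0762).

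Between gates that differed in MHC class II, whose part was not tested, dendritic cell genes were more often lower than higher in T2M. Of 24 measured, 9 were lower, 2 higher and 13 not called, with a median of -0.94 (1-replicate count 6 lower, 2 higher). Cd209a, the mouse DC-SIGN lectin of monocyte-derived dendritic cells, read 7.23, 7.84 and 6.68 against 11.90 and 11.65, 22.9-fold lower in T2M (SE 0.59 on the log2 scale, adjusted p = 0.00274). Flt3, the growth factor receptor of the dendritic lineage, read 4.11, 4.92 and 4.61 against 8.48 and 8.21 (-3.80, adjusted p = 7.85e-04). Zbtb46, a transcription factor of conventional dendritic cells, read 5.48, 6.66 and 5.90 against 9.48 and 9.05 (-3.25, adjusted p = 0.00130). Like every called gene, neither had overlapping arrays. The peptidase gene Dpp4 (-4.17), the kynurenine enzyme gene Kmo (-3.41) and the transcription factor gene Irf8 (-2.70) were lower as well (adjusted p = 0.00179, 0.00130 and 0.00273). Higher in T2M were Ccl17, a chemokine for Th2 cells, at 3.39 and Cd24a, a surface glycoprotein also of granulocytes, at 3.26 (adjusted p = 0.00379 and 2.16e-04). Xcr1, which marks cross-presenting dendritic cells, read 5.16, 4.57 and 4.34 against 5.49 and 5.13 and was not called (adjusted p = 0.215). The call also ended for Ccl17 without macrophage-labelled 1 (adjusted p = 0.0515).

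Macrophage genes split between the groups. Of 29 monocyte and macrophage genes, 5 were higher in T2M, 9 lower and 15 not called, with a median of 0.05 (1-replicate count 2 higher, 3 lower), a median that was 0.26 after quantile normalization and -0.10 with array weights. Csf1r, the receptor for the macrophage growth factor, read 13.50, 12.61 and 12.44 against 12.72 and 12.81 and was not called (0.08, adjusted p = 0.872). Of its 3 probe sets another was called lower, at -1.77, so its direction is uncertain. Csf1r and Cd68 are named here as defining genes, outside the rule for named genes and with their values seen. Cd68, a lysosomal glycoprotein, was at 10.23, 9.77 and 9.45 against 12.25 and 12.03, lower in T2M (-2.32, adjusted p = 0.00559). The genes lower in T2M included those of monocytes that circulate and enter tissue. Ccr2, the receptor for Ccl2, read 8.85, 9.51 and 9.27 against 11.39 and 11.60 (-2.29, adjusted p = 0.0118). Cx3cr1, the fractalkine receptor, read 7.58, 7.59 and 7.68 against 10.45 and 10.70 (-2.96, adjusted p = 0.00244). Aif1, an actin-binding protein of monocytes and macrophages, was at -3.33 and Ms4a4c at -2.88 (adjusted p = 0.0196 and 0.00205). Higher in T2M were C1qb and C1qc, chains of the first complement component, and Mertk, a receptor for dying cells. C1qb read 12.67, 12.51 and 11.99 against 8.61 and 8.15, a 16.1-fold difference (SE 0.37 on the log2 scale, adjusted p = 6.78e-04). Mertk differed by 1.83 (adjusted p = 0.0444) and Cd14, the endotoxin co-receptor, by 2.16 (adjusted p = 0.0146). Taking both macrophage-labelled arrays as 1, or leaving out either, Cd68, Ccr2, Aif1, Mertk and Cd14 were not called (adjusted p from 0.0514 to 0.239). No call was left for Aif1 without T2M 3, for Mertk without T2M 1, 2 or 3 (adjusted p 0.0576 to 0.0796).

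Genes of resident and interstitial macrophages were higher in T2M wherever they were called. Of 15 measured, 11 were higher, 0 lower and 4 not called, with a median of 2.73 (1-replicate count 7 higher). Ccl8 read 11.17, 11.81 and 10.63 against 4.14 and 4.42, a 121-fold difference (log2 6.92, SE 0.49, adjusted p = 2.22e-04). Lyve1, the hyaluronan receptor of perivascular macrophages, read 11.42, 9.30 and 9.88 against 5.07 and 5.77 (4.78, adjusted p = 0.00679). Pf4, a chemokine of platelets and resident macrophages, read 10.50, 10.79 and 9.43 against 4.57 and 4.96 (5.47, adjusted p = 3.36e-04). All T2M arrays lay far above both macrophage-labelled arrays for these 3 genes. Stab1, a scavenger receptor, was at 3.24, Gas6, the ligand of Mertk, at 3.34 and Cd163, the haemoglobin receptor, at 2.95 (adjusted p = 0.00284, 0.0116 and 0.0321). Timd4, a receptor for dying cells, was among those not called (0.65, adjusted p = 0.203). Cd163 was not low on the other labels, and was at 10.66 and 10.91 on the neutrophil-labelled and 9.87 and 6.98 on the eosinophil-labelled arrays. Alveolar macrophage genes had 11 of 20 higher, 0 lower and 9 not called, with a median of 1.87 (1-replicate count 7). Car4, a carbonic anhydrase, read 12.53, 11.70 and 11.60 against 5.66 and 5.45 (6.39, adjusted p = 1.39e-04), and the surface protein gene Plet1 differed by 4.58 and the fatty acid binding protein gene Fabp5 by 3.33 (adjusted p = 6.17e-04 and 5.33e-04). Of the genes that set alveolar macrophages apart, Marco and Pparg, named after their values were seen, were not called, at -0.05 and -0.48. Once the macrophage-labelled arrays were averaged, or 1 of them left out, Lyve1, Gas6 and Cd163 were not called (adjusted p from 0.0529 to 0.185). A call was lost for Cd163 without T2M 1, 2 or 3 (adjusted p 0.0532 to 0.0687).

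**Figure D3:**
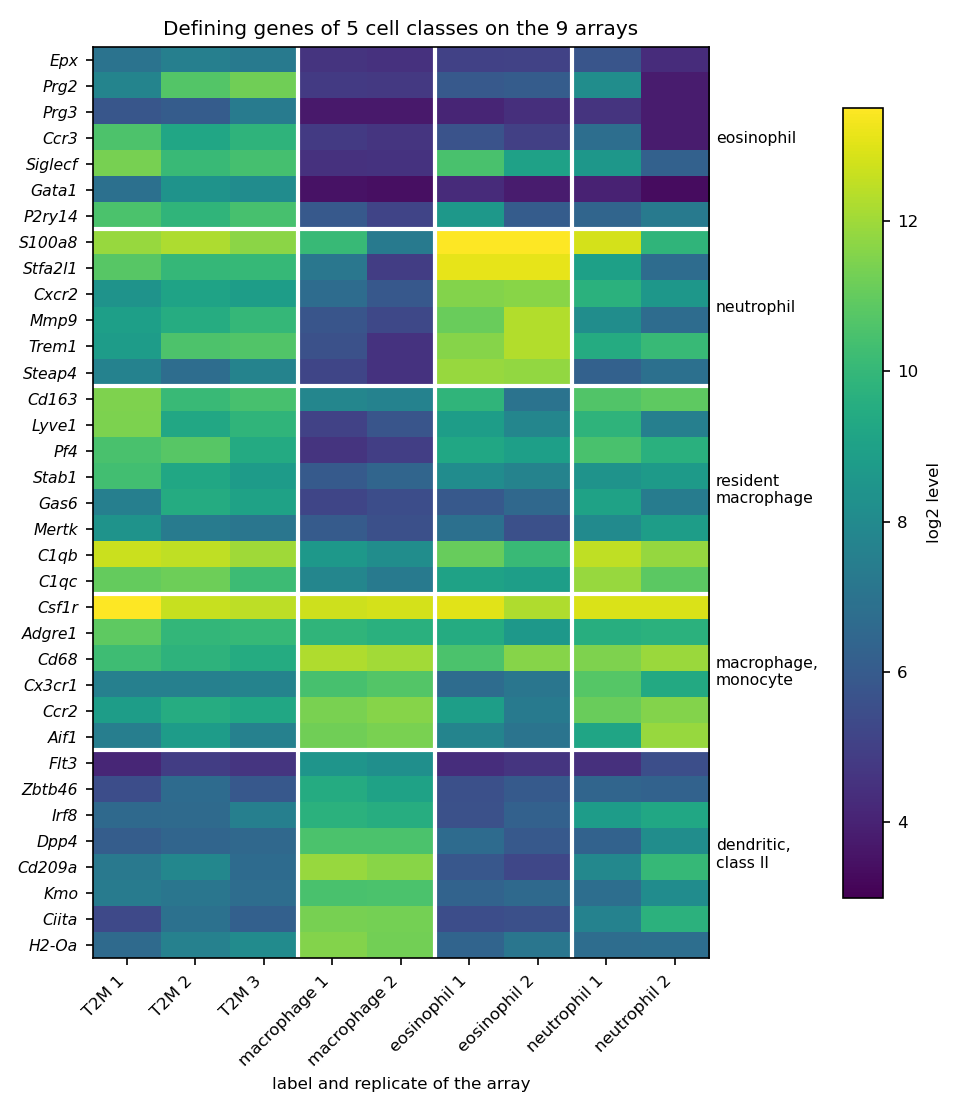
Rows are genes picked from 5 cell classes, not whole lists, and columns the 9 arrays, coloured by log2 level. Left out are Hes1, Adgre4 and Slc6a12 (eosinophil) and Ccl17, Cd24a and Cd80 (dendritic, class II), which lay the other way, and Timd4 (resident macrophage). Mertk, C1qb and C1qc, counted in the text with monocyte and macrophage genes, stand in the resident macrophage rows. Cd14 of the same list, also called higher, is left out. The macrophage and monocyte rows therefore hold no gene called higher, whereas that list had 5 of 29 higher and 9 lower. T2M arrays are brighter than macrophage-labelled arrays in the eosinophil and resident macrophage rows and darker in the dendritic and class II rows. All rows share the same colour scale, and on the T2M arrays some rows of these classes, such as Epx and H2-Oa, have like shades. Rows of neutrophil genes are brightest on the eosinophil-labelled arrays.

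Eosinophil genes that were called were, but for 1, higher in T2M. Of 12 measured, 9 were higher, 1 was lower and 2 were not called, with a median of 4.06 (1-replicate count 5 higher). Ccr3, the eotaxin receptor, read 10.58, 9.20 and 9.82 against 4.79 and 4.60, 36.1-fold higher (SE 0.79 on the log2 scale, adjusted p = 0.00501). Siglecf, a sialic acid lectin of eosinophils and alveolar macrophages, read 11.35, 10.13 and 10.41 against 4.48 and 4.52 (6.13, adjusted p = 0.00163). Gata1, a transcription factor that eosinophils need, read 6.86, 8.39 and 8.12 against 3.52 and 3.43 (4.32, adjusted p = 0.00110). The T2M arrays were above both macrophage-labelled arrays in each case, as they were for every gene called higher. Prg2, major basic protein of the eosinophil granule, varied most and read 7.72, 10.69 and 11.22 against 4.78 and 4.76 (5.11, SE 1.31, adjusted p = 0.0330). Epx, eosinophil peroxidase, read 7.01, 7.53 and 7.33 against 4.57 and 4.50 (2.76, adjusted p = 0.00366). P2ry14, a receptor for UDP-sugars, was at 4.74 and Prg3, a homologue of major basic protein that was named after its values were seen, at 2.69 (adjusted p = 0.00374 and 0.00800). Hes1, a Notch target, was the 1 member lower in T2M (-1.03, adjusted p = 0.0180), and Adgre4 (-0.54) and Slc6a12 (-0.69) were not called. The letters AGATAA or TGATAA, sites of GATA factors, on either strand stood in the promoter windows of 7 of 9 eosinophil list genes with a window, which are 5 of 7 called ones (Prg3, Ccr3, Siglecf, Il5ra and P2ry14) and both that were not called, against 2162 of all 14452 measured genes with one. A gene counted if any of its windows matched. The same letters stood in 4 of 13 MHC class II list genes with a window, which are 4 of 8 called ones. They also stood in 3 of 12 CC chemokine genes, of which 1 of 5 called ones. A match of so short a motif is a description only. Under the 1-replicate setting, or without macrophage-labelled 1 or 2, Ccr3, Prg2, Prg3 and Hes1 were no longer called (adjusted p from 0.0552 to 0.201). Calls also ended for Prg2 without T2M 2 or 3, for P2ry14 without macrophage-labelled 2, for Hes1 without T2M 2 (adjusted p 0.0517 to 0.0901).

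Among alternative activation genes that were called, more were higher than lower in T2M. Of 25 measured, 12 were higher, 4 lower and 9 not called, with a median of 1.83 (1-replicate count 10 higher). Alox15, the lipoxygenase that IL-4 induces in macrophages and that eosinophils also carry, had the largest difference of all genes. It read 12.72, 12.97 and 12.95 on the T2M arrays and 5.17 and 5.16 on the macrophage-labelled arrays, a 210.5-fold difference (SE 0.50 on the log2 scale, adjusted p = 1.77e-04). Arg1, arginase, read 10.02, 10.38 and 9.88 against 4.56 and 4.50, 47.2-fold higher (SE 0.29, adjusted p = 1.39e-04). Slc7a2, the transporter that brings arginine into such macrophages, read 11.10, 11.00 and 10.12 against 3.96 and 3.58 (6.97, adjusted p = 1.39e-04). None of these 3 genes read above 5.17 on a macrophage-labelled array. Retnla, resistin-like molecule alpha and named after its values were seen, was high on all arrays and higher in T2M, with 13.14, 13.46 and 13.02 against 10.20 and 10.04 (3.09, adjusted p = 2.22e-04). Chil3, a chitinase-like protein, read 13.39, 12.43 and 12.82 against 10.74 and 10.96 (2.03, adjusted p = 0.00409), and Mrc1, the mannose receptor, differed by 2.05 (adjusted p = 0.0372). Ch25h, which makes 25-hydroxycholesterol, was at 4.29, and the STAT-induced inhibitors Cish and Socs2 were at 3.84 and 3.80 (adjusted p = 0.00288, 6.73e-04 and 7.85e-04). The 4 lower members were Matk (-2.95), the lectin genes Mgl2 (-2.42) and Clec10a (-1.75), and Klf4 (-1.81), a factor that promotes this state (adjusted p = 0.00463, 0.0490, 0.0195 and 0.0121). Arg1 was not particular to T2M among the 4 labels, with 9.03 and 9.01 on the eosinophil-labelled and 10.67 and 11.47 on the neutrophil-labelled arrays. With the macrophage-labelled arrays as 1 replicate, or with 1 of them left out, Chil3, Mrc1, Matk, Mgl2, Clec10a and Klf4 were not called, except that Chil3 and Matk kept the call without macrophage-labelled 2 (adjusted p from 0.0534 to 0.292). The call also ended for Mrc1 without T2M 1, 2 or 3, for Mgl2 without T2M 1 or 3 or eosinophil-labelled 1 or 2 (adjusted p 0.0538 to 0.121).

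**Figure D4:**
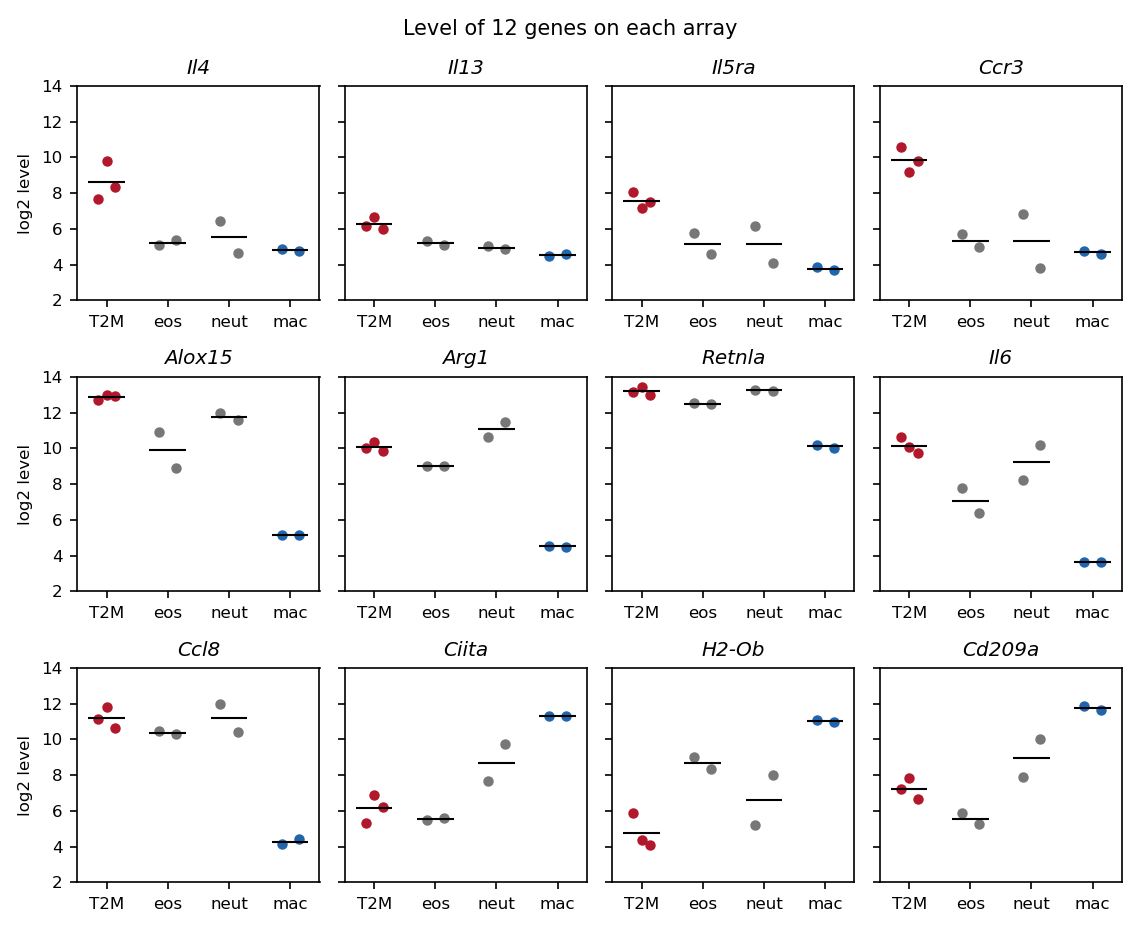
Log2 levels (y axis) of 12 genes on each array, by label, with a line at each label's mean. T2M arrays are red, macrophage-labelled arrays blue and the others grey. All 12 genes were called, and no called gene had overlapping T2M and macrophage-labelled arrays. Over all 18193 genes, the T2M arrays lay above both macrophage-labelled arrays for 7397 and below both for 5041. Alox15, Arg1, Retnla and Ccl8 are also high on the grey arrays.

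Genes of arginine and polyamine use had 4 of 18 members higher in T2M, 2 lower and 12 not called, with a median of 0.51 (1-replicate count 3 higher). Arg2, the mitochondrial arginase, read 12.01, 10.89 and 11.00 against 7.33 and 6.89 (4.19, adjusted p = 8.71e-04). Odc1, which starts polyamine synthesis from ornithine, differed by 1.24 (adjusted p = 0.0379). Lower in T2M were Asl, which rebuilds arginine from citrulline (-1.93), and Sat1, which acetylates polyamines for removal (-1.37; adjusted p = 0.0287 and 0.00940). Nos2, the inducible nitric oxide synthase that competes for arginine and is named after its values were seen, read 5.04, 4.99 and 4.73 against 4.18 and 4.34 and was not called (adjusted p = 0.453). In the 1-replicate setting, or without macrophage-labelled 1 or 2, Odc1, Asl and Sat1 were not called (adjusted p from 0.0807 to 0.217). No call was left for Odc1 without T2M 1, 2 or 3 (adjusted p 0.0716 to 0.0887).

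Type 2 cytokine genes that were called were higher in T2M. Of 11 measured, 5 were higher, 0 lower and 6 not called, with a median of 1.65 (1-replicate count 1), and 3 were higher without T2M replicate 1 or without T2M replicate 3. Beside Il4, which the sort selected, these were Il13, Il6, Il9 and Il10. Of them, only Il6 kept its call with the macrophage-labelled arrays as 1 replicate, and Il4 did not. Il13, which drives mucus and airway hyperreactivity, read 6.16, 6.69 and 6.02 against 4.48 and 4.59, 3.38-fold higher (SE 0.26 on the log2 scale, adjusted p = 0.00420). The T2M arrays lay within 0.67 of each other, all above both macrophage-labelled arrays. Il6, a cytokine of acute inflammation placed in the list for its role in Th2 priming, read 10.63, 10.06 and 9.73 against 3.63 and 3.66 (6.49, adjusted p = 6.73e-04). Il10, an inhibitory cytokine, differed by 1.65 and Il9, a mast cell growth factor, by 0.90 (adjusted p = 0.0325 and 0.0386), with levels of 5.66 or less on every T2M array for both. Il5, the eosinophil growth factor, varied on the T2M arrays and read 7.45, 4.90 and 6.81 against 4.56 and 4.72, which did not pass (1.75, adjusted p = 0.0897). Csf2 (2.01), Il2 (0.63) and Il3 (0.59) were among the others not called. Taking both macrophage-labelled arrays as 1, or leaving out either, Il13, Il10 and Il9 were not called (adjusted p from 0.0510 to 0.274). A call was lost for Il10 without T2M 1, 2 or 3, for Il9 without T2M 1, 2 or 3 or eosinophil-labelled 1 or 2 (adjusted p 0.0544 to 0.105).

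Receptors and signal genes for these cytokines were called in both directions. Of 18 measured, 4 were higher in T2M, 1 lower and 13 not called, with a median of 0.33 (1-replicate count 0), and leaving out T2M replicate 1, 2 or 3 left 2, 1 or 2 higher. Apart from Il5ra, these were Il7r, shared by the receptors for IL-7 and TSLP (2.95), Csf2rb2, a beta chain of the IL-3 receptor (1.43), and Il13ra2, a decoy receptor for IL-13 (1.42; adjusted p = 0.0390, 0.0469 and 0.0329). Stat5a, which carries signals of IL-5 and GM-CSF, was lower (-1.25, adjusted p = 0.0214). Il13ra1, the signalling IL-13 receptor chain, read 9.85, 8.33 and 8.93 against 9.91 and 9.89 and was not called. Il17rb, the IL-25 receptor chain, named here after its values were seen, read 6.40, 6.81 and 6.11 against 5.64 and 5.76 (0.74, adjusted p = 0.113). Once the macrophage-labelled arrays were averaged, or 1 of them left out, Il7r, Csf2rb2, Il13ra2 and Stat5a were not called (adjusted p from 0.110 to 0.261). Calls also ended for Il7r and Stat5a without T2M 2, for Csf2rb2 without T2M 1, 2 or 3 or eosinophil-labelled 1 or 2, for Il13ra2 without T2M 1, 2 or 3 (adjusted p 0.0548 to 0.0889).

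Chemokine genes that were called were, but for 1, higher in T2M. Of 18 CC chemokines, 8 were higher, 0 lower and 10 not called (median 1.31, 1-replicate count 6). Of 16 CXC and other chemokines, 6 were higher, 1 lower and 9 not called (median 1.09, 1-replicate count 4). Cxcl3, a neutrophil attractant, read 10.65, 10.30 and 9.89 against 3.78 and 2.11, a 162-fold difference (SE 0.48 on the log2 scale, adjusted p = 1.80e-04). The related Cxcl1 read 12.26, 11.91 and 11.47 against 7.50 and 7.63 (4.31, adjusted p = 3.85e-04), and Cxcl2 was at 3.69 (adjusted p = 0.00166). The monocyte attractants lay the same way. Ccl7 read 10.90, 11.00 and 9.54 against 4.76 and 4.59 (5.80, adjusted p = 2.35e-04), Ccl12 was at 5.82 and Ccl2 at 3.62 (adjusted p = 0.00312 and 4.56e-04). Ccl17, which draws Th2 cells through Ccr4, read 10.10, 12.03 and 10.86 against 7.56 and 7.65. Ccl22, which uses the same receptor, read 5.69, 7.99 and 8.63 against 5.75 and 5.45 with T2M replicate 1 between both macrophage-labelled arrays, and was not called (adjusted p = 0.115). Ccl24, an eotaxin, was at -1.72 and not called (adjusted p = 0.102). The 1 lower member was Cxcl9, an interferon-gamma-induced attractant of T cells, with 4.74, 3.63 and 4.09 against 7.67 and 7.15 (-3.26, adjusted p = 0.0234). The other probe set of Cxcl9 gave -0.06. Cxcl3 was high on the other labels too, with 11.48 and 11.69 on eosinophil-labelled and 9.33 and 10.01 on neutrophil-labelled arrays. Under the 1-replicate setting, or without macrophage-labelled 1 or 2, Cxcl9 was no longer called (adjusted p from 0.114 to 0.186). The call also ended for Cxcl9 without T2M 2 or 3 (adjusted p 0.0620 to 0.0677).

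Chemokine receptors were called in both directions. Of 18 measured, 6 were higher in T2M, 3 lower and 9 not called (median 0.43, 1-replicate count 2 higher, 2 lower). Ccr1 read 10.25, 9.57 and 9.32 against 4.97 and 4.27, 34.1-fold higher (SE 0.36 on the log2 scale, adjusted p = 2.27e-04). Ccr3, the scavenging receptor gene Ackr3 (4.18), Cxcr2, the receptor for Cxcl1 to Cxcl3 (2.48), Ccrl2 (2.25) and Cxcr4 (1.05) were also higher. Lower were Cx3cr1, Ccr2 and Ccr6, the receptor for Ccl20 (-2.23, adjusted p = 0.00192). With the macrophage-labelled arrays as 1 replicate, or with 1 of them left out, Ackr3, Cxcr2 and Cxcr4 were not called, except that Cxcr2 kept the call without macrophage-labelled 1 (adjusted p from 0.0523 to 0.201). No call was left for Cxcr4 without T2M 2 or 3 (adjusted p 0.0844 to 0.0880).

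Inflammatory mediators had 9 of 22 members higher in T2M, 1 lower and 12 not called, with a median of 0.81 (1-replicate count 7 higher). Il1a, an alarm cytokine, read 10.01, 10.38 and 9.99 against 3.91 and 3.02, a 101-fold difference (SE 0.36 on the log2 scale, adjusted p = 1.39e-04). Csf1, the ligand of Csf1r, read 12.04, 11.70 and 12.01 against 7.24 and 5.65 (5.47, adjusted p = 0.00235). Vegfa, the endothelial growth factor, read 10.09, 10.51 and 10.13 against 5.45 and 5.33 (4.85, adjusted p = 1.48e-04). Ptgs2, inducible cyclooxygenase, was at 4.56, and Osm, oncostatin M, at 3.99 (adjusted p = 0.00166 and 0.00643). Tgfb1 was the 1 lower member and read 7.90, 9.14 and 8.47 against 10.67 and 10.84 (-2.25, adjusted p = 0.0229). Il18 (-1.85), Lif (1.72) and Il15 (-0.95) were not called. Outside the lists, Acod1, which makes itaconate in stimulated macrophages, read 11.55, 11.66 and 11.66 against 5.82 and 3.69 (6.87, adjusted p = 9.58e-04). For lipid mediators, 6 of 30 genes were higher, 2 lower and 22 not called (median 0.22, 1-replicate count 3 higher, 1 lower). Alox5, which starts leukotriene synthesis, read 9.90, 10.06 and 10.36 against 5.37 and 5.41 (4.72, adjusted p = 7.13e-04), and Ptger3, a prostaglandin E receptor, was lower with 5.21, 3.62 and 4.09 against 7.62 and 7.34 (-3.17, adjusted p = 0.00282). In the 1-replicate setting, or without macrophage-labelled 1 or 2, Tgfb1 was not called (adjusted p from 0.148 to 0.153). A call was lost for Osm without macrophage-labelled 2, for Tgfb1 without T2M 3 (adjusted p 0.0615 to 0.0738).

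Complement genes had 9 of 19 members higher in T2M, 0 lower and 10 not called (median 1.28, 1-replicate count 4). C5ar1, the receptor for the anaphylatoxin C5a, had one of the most even differences, with 12.41, 12.45 and 12.56 against 9.12 and 9.06 (3.38, SE 0.21, adjusted p = 1.74e-04). Cd55, which shields cells from complement, read 10.31, 9.26 and 9.96 against 4.88 and 5.24 (4.78, adjusted p = 0.00132). Clu, clusterin, was at 3.35 and Vsig4, a complement receptor of resident macrophages, at 2.83 (adjusted p = 0.00910 and 0.0283). C1qa read 6.34, 8.82 and 6.32 against 6.14 and 5.58 and was not called (1.30, adjusted p = 0.241). Of 13 Fc receptor genes 0 were higher, 2 were lower and 11 not called (median -0.18, 1-replicate count 0), a share of 15.4% against 17.2% of all genes. The lower ones were Fcgrt, the neonatal Fc receptor (-2.58), and Trim21, a cytosolic Fc receptor (-2.51; adjusted p = 0.0258 and 0.0336). Scavenger and uptake receptors had 8 of 26 higher, 3 lower and 15 not called (median 0.55, 1-replicate count 2 higher, 2 lower), and 4 were higher without T2M replicate 2 or 3. Olr1, a receptor for oxidised LDL, read 9.72, 8.86 and 8.64 against 4.77 and 4.55 (4.41, adjusted p = 3.70e-04). Scarb1, the HDL receptor (-2.94), Havcr2, TIM-3 (-2.50), and Lrp1 (-2.12) were lower (adjusted p = 0.00247, 8.33e-04 and 0.00406). Taking both macrophage-labelled arrays as 1, or leaving out either, Clu, Vsig4, Fcgrt, Trim21 and Lrp1 were not called, except that Lrp1 kept the call without macrophage-labelled 1 (adjusted p from 0.0516 to 0.196). Calls also ended for Vsig4 without T2M 2, for Fcgrt without T2M 3, for Trim21 without T2M 2 or 3 (adjusted p 0.0671 to 0.0852).

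Sensors of microbes were called in both directions. Of 21 pattern recognition genes, 3 were higher, 6 lower and 12 not called (median -1.11, 1-replicate count 0), and without either neutrophil-labelled array 10 were lower. Tlr4, the endotoxin receptor, read 10.24, 8.99 and 9.03 against 7.83 and 7.84 (1.58, adjusted p = 0.0245), and with Cd14 and Nlrp3, an inflammasome sensor (2.15, adjusted p = 0.0117), formed the higher set. Tlr1, which pairs with Tlr2 for lipopeptides, read 7.41, 6.30 and 4.97 against 9.88 and 9.86 (-3.65, adjusted p = 0.0132). Cd180 (-2.66), Aim2 (-1.95), Tlr13 (-1.67), Tlr9 (-1.60) and Nod1 (-1.11) were lower too. Of 21 C-type lectin receptor genes, 6 were higher, 7 lower and 8 not called (median -0.84, 1-replicate count 3 higher, 1 lower). Clec4e, Mincle, read 10.98, 11.25 and 10.92 against 6.43 and 5.49 (5.09, adjusted p = 1.39e-04), and its neighbour in the same gene cluster Clec4d was at 3.67 (adjusted p = 0.00165). Clec2d (-3.83), Clec4b1 (-3.65) and Cd209d (-1.99) were lower (adjusted p = 0.00511, 0.0263 and 0.00559). Once the macrophage-labelled arrays were averaged, or 1 of them left out, Tlr4, Nlrp3, Tlr1, Cd180, Aim2, Tlr13, Tlr9, Nod1, Clec2d, Clec4b1 and Cd209d were not called, except that Aim2 and Clec2d kept the call without macrophage-labelled 2 (adjusted p from 0.0508 to 0.249). The call also ended for Cd180 and Clec4b1 without T2M 2 or 3, for Nod1 without T2M 1 or 2 (adjusted p 0.0523 to 0.0870).

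The gate could hold other cells, and the neutrophil genes that were called were higher on the T2M arrays. Of 22 neutrophil genes, 10 were higher in T2M, 0 lower and 12 not called (median 1.95, 1-replicate count 5). Stfa2l1, a cystatin of granulocytes, read 10.77, 9.98 and 10.02 against 7.17 and 4.92 (4.21, adjusted p = 0.0102). S100a8, the calgranulin of neutrophils and monocytes, read 11.90, 12.19 and 11.68 against 10.08 and 7.29, with macrophage-labelled replicate 1 well above replicate 2 (3.24, adjusted p = 0.0496). It was at 1.84 without macrophage-labelled 2 (adjusted p = 0.304). On the eosinophil-labelled arrays Stfa2l1 read 13.09 and 13.11, and S100a8 read 13.64 and 13.86. Padi4, a histone-citrullinating enzyme, read 9.94, 10.41 and 10.65 against 5.21 and 4.22 (5.62, adjusted p = 0.00608), above its 9.64 and 8.86 on the eosinophil-labelled arrays. Of 14 neutrophil granule genes, 3 were higher, 0 lower and 11 not called (median 0.41, 1-replicate count 1), a share of 21.4% against 17.2% of all genes, and Mpo, Elane, Prtn3 and Ctsg of the primary granule differed by 0.23, 0.35, 0.08 and 0.21 without being called. Mpo, Elane and Ctsg turned below 0 after quantile normalization, as Prtn3 did without T2M replicate 2 or macrophage-labelled replicate 2. The part of neutrophil RNA in the genes higher in T2M was not tested. Under the 1-replicate setting, or without macrophage-labelled 1 or 2, S100a8 and Padi4 were no longer called, except that Padi4 kept the call without macrophage-labelled 1 (adjusted p from 0.0589 to 0.304). No call was left for Stfa2l1 without macrophage-labelled 2, for S100a8 without T2M 1, 2 or 3 or eosinophil-labelled 1 or 2 (adjusted p 0.0696 to 0.118).

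Structural lung genes that were called were higher in T2M as well. Of 30 epithelial, endothelial and stromal genes, 16 were higher, 0 lower and 14 not called (median 1.97, 1-replicate count 3), and 10 were higher without T2M replicate 2 and 9 without T2M replicate 3. Their mean level was 7.56 to 7.82 on the T2M arrays, 5.71 to 5.93 on the macrophage-labelled, 6.85 to 7.12 on the eosinophil-labelled and 6.16 to 7.04 on the neutrophil-labelled arrays. Sftpa1, a surfactant protein, read 9.70, 10.52 and 9.70 against 6.53 and 7.36 (3.03, adjusted p = 0.0102). Cav1, of caveolae in endothelium and alveolar epithelium, read 10.17, 9.92 and 9.07 against 4.72 and 5.11 (4.80, adjusted p = 0.00188), and Tek, the angiopoietin receptor, 7.58, 7.61 and 7.91 against 3.49 and 3.27 (4.32, adjusted p = 0.0187). Scgb1a1, of club cells, read 11.62, 7.48 and 8.12 against 6.54 and 7.56 with T2M replicate 2 below macrophage-labelled replicate 2, and was not called (adjusted p = 0.200). The part of such cells in this comparison was not tested. With the macrophage-labelled arrays as 1 replicate, or with 1 of them left out, Sftpa1 and Tek were not called (adjusted p from 0.0537 to 0.136). A call was lost for Tek without T2M 3 (adjusted p = 0.0540).

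Mast cell and basophil genes had 4 of 20 higher, 1 lower and 15 not called (median 0.71, 1-replicate count 1), and 2 were higher without T2M replicate 1 or 3. The share of these genes called was 25.0%, against 17.2% of all genes. Hdc, which makes histamine, read 11.13, 10.64 and 11.07 against 6.45 and 4.98 (5.23, adjusted p = 0.00445). Slc18a2, a vesicular amine transporter, was at 2.29 and Gata2 at 1.57. Kit, the stem cell factor receptor, was lower (-1.85, adjusted p = 0.0135). Mcpt8, the basophil protease, read 7.39, 5.83 and 5.79 against 4.92 and 4.72 and was not called (adjusted p = 0.0647), as was Cpa3 of mast cells (2.40). T cell and innate lymphoid genes had 4 of 22 higher, 2 lower and 16 not called (median 0.44, 1-replicate count 1 lower), and 0 were higher without T2M replicate 2 and 1 without T2M replicate 3. Cd3e read 6.83, 8.11 and 7.80 against 5.85 and 5.30 (2.00, adjusted p = 0.0245) and Cd4, carried also by some myeloid cells, 7.57, 7.19 and 7.11 against 11.18 and 10.88, lower in T2M (-3.74, adjusted p = 0.00130). NK cell genes had 2 of 13 higher, 1 lower and 10 not called (median 0.77, 1-replicate count 1 lower), a share of 23.1% against 17.2% of all genes, with Gzmb at 3.23 and Klrk1 at -3.19 (adjusted p = 0.0330 and 0.00195). B and plasma cell genes had 2 of 16 higher, 3 lower and 11 not called (median -0.24, 1-replicate count 1 higher, 1 lower), with Bank1 at 2.72 and Cd79b at -2.70. Erythroid and platelet genes had 1 of 11 higher, which was Pf4, 2 lower and 8 not called (median 0.35, 1-replicate count 1). The part of these cells was not tested. In the 1-replicate setting, or without macrophage-labelled 1 or 2, Slc18a2, Gata2, Kit, Cd3e and Gzmb were not called (adjusted p from 0.0734 to 0.199). Calls also ended for Hdc and Bank1 without macrophage-labelled 2, for Gata2 without T2M 1, 2 or 3, for Cd3e without T2M 2 or 3, for Gzmb without T2M 1 or 3 (adjusted p 0.0561 to 0.0864).

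**Figure D5:**
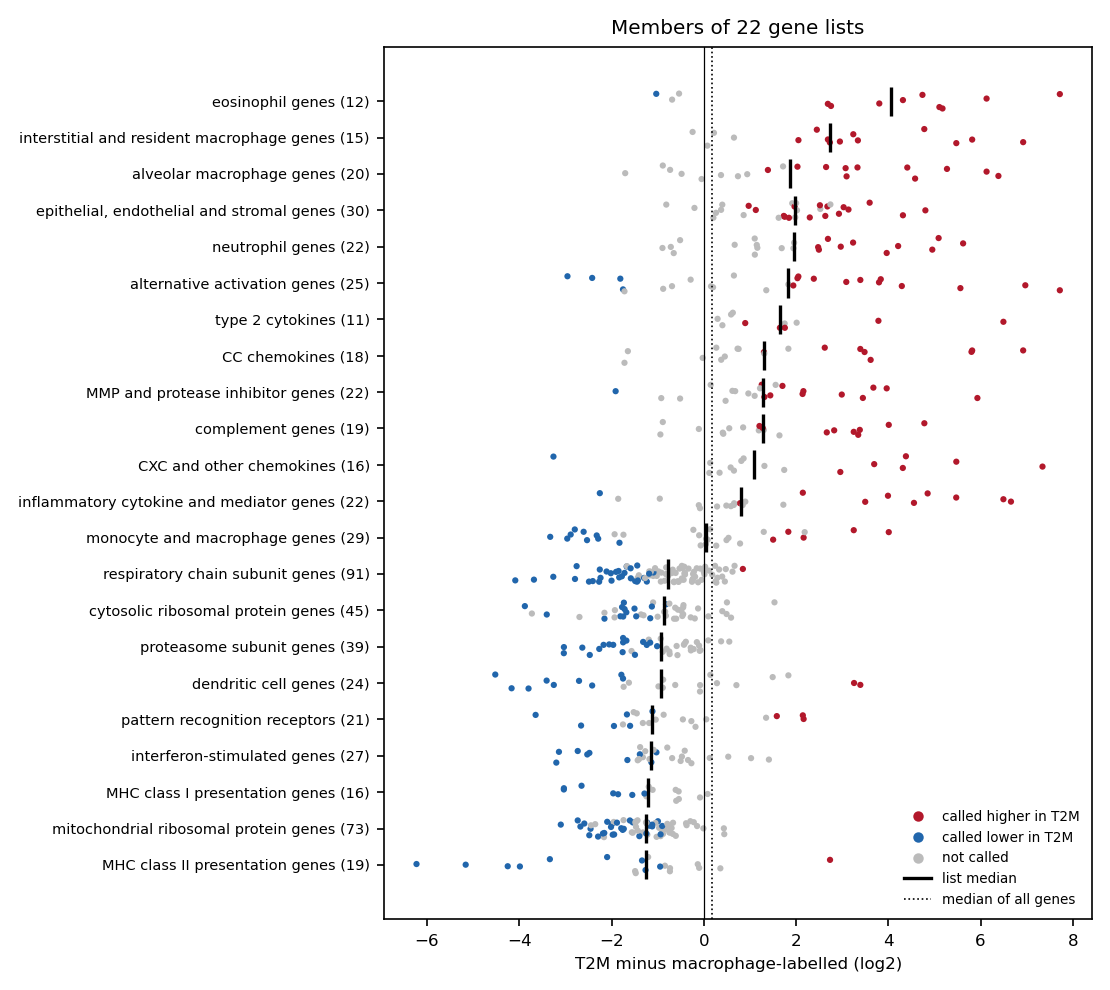
Each point is a member of a gene list at its T2M minus macrophage-labelled difference (x axis, log2), with the number measured in brackets, a bar at the list's median and a dotted line at the median of all genes (0.18). Red and blue points were called higher and lower in T2M. List medians run from 4.06 for eosinophil genes to -1.26 for MHC class II genes.

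Transcription factors were called in both directions. Of 40 myeloid factors, 9 were higher in T2M, 9 lower and 22 not called (median -0.01, 1-replicate count 4 higher, 2 lower), and without T2M replicate 3 there were 5 in each direction. The higher set held Gata1, Gata2, Tfec (2.03), Bhlhe40 (2.02), Egr2 (1.94) and Cebpb. Cebpb, a factor of emergency granulopoiesis and of Arg1, read 12.82, 12.71 and 12.69 against 11.03 and 11.04 (1.71, adjusted p = 0.00187). The other probe set of Cebpb gave 0.07. The related Cebpa, which the myeloid lineage needs, lay the other way with 8.18, 8.34 and 7.94 against 10.34 and 10.81 (-2.42, adjusted p = 0.0212). Irf8, Irf5 (-2.30), Spib (-1.79), Lmo2 (-2.02) and Klf4 were lower. Spi1, which encodes PU.1, read 8.94, 10.36 and 10.06 against 11.53 and 11.26 and was not called (-1.61, adjusted p = 0.0751). Bcl11a, a factor of plasmacytoid dendritic and B cells outside the list, read 6.19, 4.52 and 4.45 against 10.33 and 10.14 (-5.18, adjusted p = 7.06e-04). Immediate early genes, which respond to stimulation and also to tissue digestion, had 9 of 24 higher, 3 lower and 12 not called (median 0.09, 1-replicate count 4 higher), and 4 were higher without T2M replicate 2 and 3 without T2M replicate 3. Egr3 read 9.73, 8.89 and 9.59 against 6.38 and 5.20 (3.61, adjusted p = 0.00244) and Fosl2 was at 2.47, whereas Jun (-1.75), Ier2 (-2.07) and Atf3 (-1.17) were lower (adjusted p = 0.00923, 0.0434 and 0.0468). Atf3 was at -0.71 without macrophage-labelled 1 and at -1.64 without macrophage-labelled 2. Taking both macrophage-labelled arrays as 1, or leaving out either, Tfec, Cebpa, Irf5, Lmo2, Jun, Ier2 and Atf3 were not called (adjusted p from 0.0659 to 0.355). The call also ended for Cebpa and Irf5 without T2M 3, for Ier2 without T2M 1, 2 or 3, for Atf3 without T2M 1, 2 or 3 or eosinophil-labelled 1 or 2 (adjusted p 0.0584 to 0.105).

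Inhibitors and regulators of signalling had 5 of 30 genes higher, 3 lower and 22 not called (median -0.03, 1-replicate count 3 higher). This list held NF-kappaB subunits, STAT factors and their kinases as well as inhibitors. Besides Cish and Socs2, the higher ones were Socs3 (2.98) and the NF-kappaB regulators Nfkbiz (1.53) and Tnfaip3 (1.36), with adjusted p = 0.00117, 0.00401 and 0.0129. Stat5a was among the 3 lower ones. Glucocorticoid-responsive genes had 6 of 18 higher, 3 lower and 9 not called (median 0.10, 1-replicate count 3 higher). Mt2, a metallothionein that also answers to zinc, read 11.14, 11.81 and 10.92 against 6.34 and 6.45 (4.90, SE 0.30, adjusted p = 1.48e-04), and Il1r2, a decoy receptor for IL-1, was at 3.24 (adjusted p = 0.00105). Fkbp5 (-1.09), Tsc22d3 (-1.68) and Txnip (-1.98) were lower (adjusted p = 0.0170, 0.0147 and 0.00446), although another probe set gave 0.24 for Tsc22d3 and 0.16 for Txnip. Mt1, at 2.68, had another probe set called lower, at -1.05, so its direction is uncertain. Once the macrophage-labelled arrays were averaged, or 1 of them left out, Nfkbiz, Tnfaip3, Fkbp5, Tsc22d3 and Txnip were not called (adjusted p from 0.0529 to 0.154). No call was left for Fkbp5 without T2M 3, for Mt1 without macrophage-labelled 2 (adjusted p 0.0527 to 0.0552).

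Of 29 glycolysis and hypoxia genes, 9 were higher, 2 lower and 18 not called (median 0.41, 1-replicate count 6 higher). Egln3, an oxygen-sensing hydroxylase that HIF induces, read 8.63, 8.78 and 9.04 against 3.70 and 3.99 (4.97, adjusted p = 2.35e-04). Epas1, HIF-2 alpha, read 11.22, 10.93 and 10.69 against 6.68 and 7.03 (4.09, adjusted p = 0.00374). Adm, adrenomedullin, was at 3.58 and Slc2a3, a glucose transporter, at 1.95 (adjusted p = 0.00166 and 0.00453). The other probe set of Adm gave 0.63. Pdk3 (-2.01) and Car9 (-1.55) were lower. Oxidant and antioxidant genes had 8 of 26 higher, 4 lower and 14 not called (median 0.11, 1-replicate count 2 higher), and without T2M replicate 3 there was 1 lower. Srxn1, an Nrf2 target that repairs peroxiredoxins, read 8.48, 9.02 and 8.53 against 6.15 and 5.87 (2.66, adjusted p = 8.52e-04). Slc7a11, the cystine importer and also an Nrf2 target, read 10.39, 10.89 and 11.01 against 4.89 and 4.27 (6.19, adjusted p = 1.39e-04). Ncf1 of the NADPH oxidase was at 2.06 and Sod1 at -1.11 (adjusted p = 0.00577 and 0.0151), while Cybb, the oxidase's membrane core, was not called (-0.60). Iron and heme genes had 6 of 24 higher, 2 lower and 16 not called (median -0.12, 1-replicate count 3 higher). Alas1, which starts heme synthesis, read 11.15, 10.69 and 10.79 against 7.76 and 7.60 (3.20, adjusted p = 4.24e-04), and Slc11a1, the phagosomal metal pump, was at 2.52 (adjusted p = 0.00138). Under the 1-replicate setting, or without macrophage-labelled 1 or 2, Pdk3, Car9, Ncf1 and Sod1 were no longer called (adjusted p from 0.0610 to 0.260). A call was lost for Epas1 without macrophage-labelled 1, for Slc2a3 without macrophage-labelled 2, for Pdk3 without T2M 2 or 3, for Car9 without T2M 2 or 3 or eosinophil-labelled 1 or 2 (adjusted p 0.0528 to 0.100).

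Proteases and their inhibitors had 11 of 22 genes higher in T2M, 1 lower and 10 not called (median 1.29, 1-replicate count 4 higher), and 7 were higher without T2M replicate 2 or 3. Serpinb2, an inhibitor of plasminogen activators, read 10.86, 10.74 and 9.85 against 4.74 and 4.36 (5.93, adjusted p = 2.35e-04). Mmp19 read 10.68, 10.37 and 9.83 against 6.86 and 6.83 (3.45, adjusted p = 4.48e-04) and Mmp9, gelatinase B, was at 3.96 (adjusted p = 0.00292). Timp1 (3.68) and Timp3 (2.99), inhibitors of these enzymes, were higher too (adjusted p = 0.0220 and 0.0111), and Cst3, cystatin C, was lower (-1.91, adjusted p = 0.0398). Lysosomal genes had 5 of 31 higher, 2 lower and 24 not called (median -0.17, 1-replicate count 3 higher, 3 higher without T2M replicate 3), a share of 22.6% against 17.2% of all genes, among them the protease gene Ctsk with 9.49, 6.03 and 6.99 against 4.12 and 4.70 (3.10, adjusted p = 0.0415). Nucleotide and adenosine genes had 4 of 17 higher, 0 lower and 13 not called (median 0.88, 1-replicate count 2), a share of 23.5%. Entpd1 and Nt5e, which turn extracellular ATP into adenosine in sequence, were both higher at 1.75 and 2.12 (adjusted p = 0.00400 and 0.00515). Integrin and adhesion genes had 5 of 26 higher, 0 lower and 21 not called (median 0.30, 1-replicate count 1), a share of 19.2%. Selp, P-selectin of platelets and endothelium, read 10.76, 11.10 and 10.48 against 4.20 and 4.49 (6.43, adjusted p = 0.00135). With the macrophage-labelled arrays as 1 replicate, or with 1 of them left out, Timp1, Timp3, Cst3, Ctsk, Entpd1 and Nt5e were not called (adjusted p from 0.0541 to 0.255). Calls also ended for Timp1 without T2M 2 or 3, for Cst3 without T2M 1 or 3, for Ctsk without T2M 3 or eosinophil-labelled 1 or 2 (adjusted p 0.0533 to 0.0874).

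Genes of ribosomes, respiration and the proteasome that were called were, but for 1, lower in T2M. Of 73 mitochondrial ribosomal protein genes, 30 were lower, 0 higher and 43 not called (median -1.24, 1-replicate count 4). Of 91 respiratory chain genes, assembly factors included, 29 were lower, 1 higher and 61 not called (median -0.77, 1-replicate count 0). Of 39 proteasome subunit genes, 17 were lower, 0 higher and 22 not called (median -0.93, 1-replicate count 0), and of 45 cytosolic ribosomal protein genes, 14 were lower, 0 higher and 31 not called (median -0.86, 1-replicate count 2). Without T2M replicate 3, 16 mitochondrial ribosomal, 13 respiratory chain, 8 proteasome and 7 cytosolic ribosomal genes were lower. Rps19 read 7.01, 8.75 and 7.17 against 11.48 and 11.57 (-3.88, adjusted p = 0.00393). Mrps14 read 7.09, 7.42 and 8.03 against 10.33 and 10.16 (-2.73, adjusted p = 0.00361). Psmc5, an ATPase of the proteasome's regulatory particle, read 6.84, 7.40 and 7.40 against 9.41 and 9.36 (-2.17, adjusted p = 0.00436), and Atp5b, a subunit of ATP synthase, was at -2.49 (adjusted p = 0.00578). These medians stood beside the Gapdh control difference of 2.35 to 3.43 on T2M and 1.02 to 1.20 on macrophage-labelled arrays, beside the actin difference of -0.04 to 0.61 and -0.02 to -0.01, and beside a median of -0.42 over the highest of 4 bins of genes by level. The part of RNA quality and level in these groups was not tested. In the 1-replicate setting, or without macrophage-labelled 1 or 2, Psmc5 and Atp5b were not called (adjusted p from 0.0526 to 0.0768). The call also ended for Mrps14 without macrophage-labelled 1 (adjusted p = 0.0529).

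MHC class I genes had 7 of 16 members lower in T2M, 0 higher and 9 not called (median -1.22, 1-replicate count 0), and 4 were lower without T2M replicate 2. Psmb9, an immunoproteasome subunit that interferon-gamma induces, differed by -3.03 (adjusted p = 0.00659). Psmb8, another such subunit, read 7.27, 9.33 and 8.81 against 11.41 and 11.60 (-3.03, adjusted p = 0.0166). H2-K1, a class I heavy chain, read 9.34, 11.68 and 11.72 against 12.20 and 12.12 and was not called (adjusted p = 0.208). Interferon-stimulated genes had 9 of 27 lower, 0 higher and 18 not called (median -1.14, 1-replicate count 3), and 5 were lower without T2M replicate 3. Usp18, an inhibitor of the interferon receptor, read 5.02, 5.32 and 4.69 against 8.36 and 8.05 (-3.20, adjusted p = 0.00132), and Oas3 (-3.14), Xaf1 (-2.73) and Mx1 (-2.48) were lower too (adjusted p = 0.00802, 0.00202 and 0.00226). Gbp2, a guanylate-binding protein, was not called and lay the other way (1.41, adjusted p = 0.0776). Taking both macrophage-labelled arrays as 1, or leaving out either, Psmb9, Psmb8 and Oas3 were not called (adjusted p from 0.0661 to 0.124).

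In the remaining lists, cell cycle genes had 2 of 39 higher, 3 lower and 34 not called (median -0.16, 1-replicate count 0), a share of 12.8% against 17.2% of all genes, and 8 were lower with 1 neutrophil-labelled array left out, with Mki67 at 1.03 and Ccnd1 at -2.23 (adjusted p = 0.0337 and 0.00713). Cholesterol and fatty acid genes had 2 of 34 higher, 1 lower and 31 not called (median 0.04, 1-replicate count 0), a share of 8.82%. The sterol exporter gene Abca1 read 10.38, 9.58 and 8.55 against 5.93 and 5.80 (3.64, adjusted p = 0.00413). Genes of the secretory pathway had 3 of 33 higher, 4 lower and 26 not called (median -0.09, 1-replicate count 1 higher), with 1 lower without T2M replicate 2 or 3, and BCL2 family and death genes 2 of 25 higher, 2 lower and 21 not called (median 0.08, 1-replicate count 0). Rab GTPase genes had 3 of 59 higher, 10 lower and 46 not called (median -0.03, 1-replicate count 1 higher, 2 lower, and 6 lower without T2M replicate 2 or 3), with Rab44, of granulocyte granules, at 9.20, 10.03 and 9.68 against 4.51 and 3.63 (5.57, adjusted p = 4.24e-04). The share called was below the 17.2% of all genes for BCL2 family and death genes. It was above 17.2% for secretory pathway genes and Rab GTPase genes. Once the macrophage-labelled arrays were averaged, or 1 of them left out, Mki67, Ccnd1 and Abca1 were not called (adjusted p from 0.0501 to 0.261). No call was left for Mki67 without T2M 1, 2 or 3 (adjusted p 0.0613 to 0.0845).

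Outside the lists, the largest differences named receptors, transporters and enzymes of varied roles. F2r, the thrombin receptor, read 11.36, 11.15 and 11.23 on the T2M arrays and 3.60 and 3.77 on the macrophage-labelled arrays (7.56, SE 0.52, adjusted p = 2.16e-04). Ednrb, the endothelin B receptor, read 10.28, 9.86 and 8.82 against 3.26 and 3.39 (6.33, adjusted p = 6.68e-04), and Gja1, connexin 43, varied more with 10.49, 8.60 and 8.66 against 3.24 and 3.20 (6.03, SE 1.03, adjusted p = 0.00771). Per2, of the circadian clock, had one of the most even differences with 8.39, 8.80 and 8.32 against 4.37 and 4.51 (4.06, SE 0.23, adjusted p = 1.39e-04). On the side of the macrophage-labelled arrays, Dnase1l3, a DNase secreted by macrophages and dendritic cells, read 6.82, 5.91 and 5.73 against 11.78 and 11.50 (-5.49, SE 0.35, adjusted p = 1.77e-04). Cyp27a1, a sterol hydroxylase, read 7.09, 7.38 and 7.34 against 11.90 and 11.56 (-4.46, adjusted p = 1.39e-04). Slc46a3, a lysosomal transporter, read 6.56, 6.30 and 6.16 against 10.62 and 10.68 (-4.31, adjusted p = 1.39e-04). Dnase1l3 was low on the other labels too, at 6.71 and 6.34 on the eosinophil-labelled and 6.05 and 5.65 on the neutrophil-labelled arrays. Slc46a3 read 6.44 and 6.93 and 6.43 and 6.76 there. Stra6l (-4.92), Bex6 (-4.89), Abcg3 (-5.04), Pid1 (-4.59), Cyp4f16 (-4.55), Adam23 (-4.53), Calhm6 (-4.51) and Gbp8 (-4.32) were also among the 15 largest lower differences, leaving out symbols with no proper name. Under the 1-replicate setting, or without macrophage-labelled 1 or 2, Gja1 and Calhm6 were no longer called (adjusted p from 0.0692 to 0.108).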

How the data were processed

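RNA of sorted lung cells was amplified and hybridised to Affymetrix arrays, 3 of T2M, 2 macrophage-labelled, 2 eosinophil-labelled and 2 neutrophil-labelled. The deposited log2 values per probe set were used as the authors gave them. RMA, affy and limma stand in the submitters' processing notes, with no version, and how the arrays were normalized to each other is not given in the sources used here. Array medians were 5.48 to 5.68, and the number of arrays limits the precision.

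Of 45101 probe sets, 34945 carried 1 gene symbol in the platform annotation, 932 several, 9160 none, and 64 were controls. Each of 18193 genes was represented by its brightest probe set with a single symbol, by the mean over all 9 arrays. Group means of all 9 arrays were fitted with limma 3.58.1 in R 4.3.3, and T2M minus macrophages was tested two-sided with empirical Bayes moderation (5 residual and 3.26 prior degrees of freedom) and Benjamini-Hochberg adjustment over all genes. The fit was also run on simulated arrays with known differences. Their noise was independent and of equal spread on all arrays. The run could therefore not show how calls hold where same-label pairs differ in likeness, as they do here. Figures were drawn with matplotlib 3.10.9.

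The groups compared, the gene lists and the rule for named genes were chosen with earlier results of these data known. Named were 15 called genes per direction with the largest difference (leaving out symbols with no proper name), genes of the gate antigens, up to 6 called members per direction and 3 others of each list (any member of lists under 15), and the 10 largest moderated t per direction. Cd68, Csf1r, Il17rb, Marco, Nos2, Pparg, Prg3 and Retnla lie outside this rule and were chosen after their values were seen. Promoter sequences came from RefSeq on GRCm38.p6. Alternatives covered the choice of probe set, scaling, dim genes, moderation, array weights, the arrays entering the fit, pairing by replicate number, and leaving out each array. Whether replicate numbers pair the arrays cannot be told from the values. Deviations from the group mean correlated within 0.0497 of 0 between same-numbered T2M and macrophage-labelled arrays. The deviations of the 2 macrophage-labelled arrays mirror each other, so this check could not exclude a pairing.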

Additional observations from a re-analysis of the deposited data

How the results depend on the processing

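The count of called genes kept its size within 1.5 times, in both directions, with another choice of probe set, with a filter on dim genes, with arrays shifted to a common median and with trended, robust moderation. A like count did not mean the same genes. Of the 3123 calls, 2677 were shared with the probe set of highest variance and 2599 with the mean over probe sets. Probe sets without s or x in their ID shared 2862. In that order, 138, 30 and 57 called genes had the opposite sign. After quantile normalization 966 were higher and 1190 lower, 55.2% lower against 62.0%. Array weights gave 10163 calls (5344 higher, 4819 lower), the 5 T2M and macrophage-labelled arrays alone 4988 (2253 and 2735), a 2-fold minimum 415 (213 and 202), and the macrophage-labelled arrays as 1 replicate 459 (220 and 239). With the replicate block, for numbers that may or may not pair the arrays, 1733 were called (638 and 1095). Leaving out 1 array gave 434 to 5069 calls, 221 to 2398 higher and 213 to 2671 lower. The fewest came without macrophage-labelled replicate 1 (434) or 2 (514), then without T2M replicate 3 (1764) or 2 (1938), and the most without either neutrophil-labelled array. Without T2M replicate 1 and neutrophil-labelled replicate 2, a setting chosen after seeing the data, 6371 were called (2925 and 3446). The cause of these changes was not tested.

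Of 202 named genes that were called, 107 were past the threshold with the macrophage-labelled arrays as 1 replicate and 89 under every setting tried. Signs turned for 3 of these: Mt1 was at -1.05 and Tsc22d3 at 0.24 with probe sets without s or x in their ID, and Txnip at 0.16 with the probe set of highest variance. Among genes not called, Csf1r was at -1.77 with the probe set of highest variance, -0.78 with the mean over probe sets, -0.13 with array weights, -0.24 in the added setting and -0.24 to 0.29 with 1 array left out. Marco was at 0.59 with the probe set of highest variance and without s or x, 0.27 with the mean, and -0.15 to 0.072 with 1 array left out. After quantile normalization Ctsg was at -0.12, Elane at -0.012 and Mpo at -0.16, and Prtn3 ran from -0.19 to 0.28 with 1 array left out.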
